A study of Mus musculus with 8 samples.

Results

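The Toll-like receptor and Myd88 genes were examined in 8 ATAC-seq peak lists from mouse hippocampal microglia, the resident macrophages of the brain. The set holds 10 of the 21887 protein-coding genes on the assembled chromosomes: Tlr1, Tlr2, Tlr6, Tlr4, Cd14, Tlr3, Tlr7, Tlr9, Tlr13 and Myd88. The rule that picks them goes by name and uses no measured value, although the set was proposed with earlier results of these data known. Every peak in a gene's span or within 20 kb of it was collected, and this stretch is called the gene's window. Merging peaks of all lists that shared at least 1 bp gave 35 regions in these windows, of 52177 in all. ATAC-seq uses a transposase to cut open DNA, so that a peak marks a stretch with more cuts than its surroundings. The 4 control (Ctrl) and 4 FGR libraries came from the hippocampus of mice labelled as 3 weeks old, and all 8 carry the genotype Tmem119-tdTomato+/-, a fluorescent reporter at a microglial gene. FGR is read here as fetal growth restriction, since the study's title speaks of intrauterine growth restriction, and the comparison asks whether it goes with a difference in microglial chromatin. The sources used here do not give how growth was restricted, how cells were isolated, or the number and sex of the animals behind a library. Nothing says that libraries of a group came from separate animals, so p-values reflect only how these libraries vary, which may be technical.

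Toll-like receptors recognise conserved microbial molecules and products of damaged cells, and microglia use them to sense infection and injury in the brain. Tlr2 pairs with Tlr1 or Tlr6 at the cell surface and binds bacterial lipopeptides, and Tlr4 binds lipopolysaccharide with the help of the co-receptor Cd14. Tlr3 binds double-stranded RNA, Tlr7 single-stranded RNA, Tlr9 DNA with unmethylated CpG and Tlr13 bacterial ribosomal RNA, all in endosomes. Myd88 is the adaptor that links all of these receptors except Tlr3 to kinases and to NF-kappaB.

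Only Tlr2 and Tlr9 had a peak over an annotated transcription start in at least 7 of the 8 libraries, and both had one in all 8. The 250 bases before these starts are shown because the merged start regions of these genes cover them. They are from RefSeq on GRCm38.p6, the assembly known as mm10, and run 5′ to 3′ on the gene's strand. Capitals mark matches to the motifs named after the sequences.
Tlr2 promoter, chr3:83841609-83841858, minus strand: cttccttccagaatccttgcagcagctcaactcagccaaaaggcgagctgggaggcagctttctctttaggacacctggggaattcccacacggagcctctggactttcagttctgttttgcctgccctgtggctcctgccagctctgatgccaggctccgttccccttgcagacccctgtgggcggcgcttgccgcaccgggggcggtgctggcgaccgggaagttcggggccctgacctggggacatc
Tlr9 promoter, chr9:106222348-106222597, plus strand: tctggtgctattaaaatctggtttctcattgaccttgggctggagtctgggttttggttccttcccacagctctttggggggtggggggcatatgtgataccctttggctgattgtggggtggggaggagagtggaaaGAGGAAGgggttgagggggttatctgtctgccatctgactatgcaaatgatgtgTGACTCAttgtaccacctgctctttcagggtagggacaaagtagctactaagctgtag
The Tlr9 stretch holds the PU.1 motif GAGGAAG at 112 to 106 bases before the start and the AP-1 motif TGANTCA, as TGACTCA, at 58 to 52 bases before it. PU.1 is a transcription factor of the macrophage lineage, and AP-1 is a family of factors induced by many stimuli. Among 32851 annotated starts, 10.6% had GAGGAAG and 6.75% had TGANTCA in the same stretch, on either strand. None of the motifs, as searched, was in the Tlr2 stretch. The others were the interferon-stimulated response element, 1 form of the NF-kappaB motif, the E-box CACGTG, and TATAAA. Each was searched on both strands, and none overlapped another in the stretches shown. Each motif was searched as 1 fixed pattern. Other forms of NF-kappaB site were not searched for, and the Tlr2 stretch may hold one. The Tlr2 stretch had a GC content of 62.8% and 11 CpG, and the Tlr9 stretch had 50.4% and 0 CpG, beside a median GC content of 52.4% over all starts. Starts were given for 7 of the 10 genes, and those of Tlr4, Tlr7 and Cd14 were not used here. Among the other starts, Myd88 had an interferon-stimulated response element at 40 to 31 bases before its start, held by 2.98% of all starts, and Tlr6 had a pair of overlapping ones at 116 to 107 and 110 to 101 bases before 1 of its starts. GAGGAAG stood at 23 to 17 bases before a Tlr1 start and at 83 to 77 before the Tlr13 start. Tlr3 had the searched form of the NF-kappaB motif at 211 to 202 bases before its start, held by 0.356% of all starts. CACGTG stood at 195 to 190 bases before the other Tlr1 start, and 6.02% of all starts held it. TATAAA, in either orientation, was found before the other Tlr6 start and the Myd88 start, and 12.4% of all starts held it. A match is a string of letters and not a measured binding site.

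The lists held 16111, 10862, 22705 and 24195 peaks in Ctrl 1 to 4 and 27209, 23327, 29501 and 26246 in FGR 1 to 4. Ctrl 1 and 2 stood apart, with median peak widths of 566 and 523 bp against 353 to 386 bp in the other 6 libraries. In FGR 1 and 3, 9.29% of regions common to both lists had their summits on the same base, and in FGR 2 and 4 it was 7.77%, against 1.80% to 2.22% in the 13 other pairs among those 6 libraries. The FGR libraries were thus not shown to be 4 independent samples, and an SD over 4 of them may be too small. As a check on the cells, 4 of 8 microglia markers had a gene-end peak in all 8 libraries, Tmem119 and Cx3cr1 among them. A gene-end peak is one that comes within 1 kb of an annotated end of the gene, inside or outside it. None of 5 neuron and none of 4 monocyte and neutrophil markers had one in any library. Of the astrocyte, oligodendrocyte, endothelial, border macrophage and lymphocyte markers, 4 each, at most 2 had one in a library, and their part in the results was not tested.

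**Figure D1:**
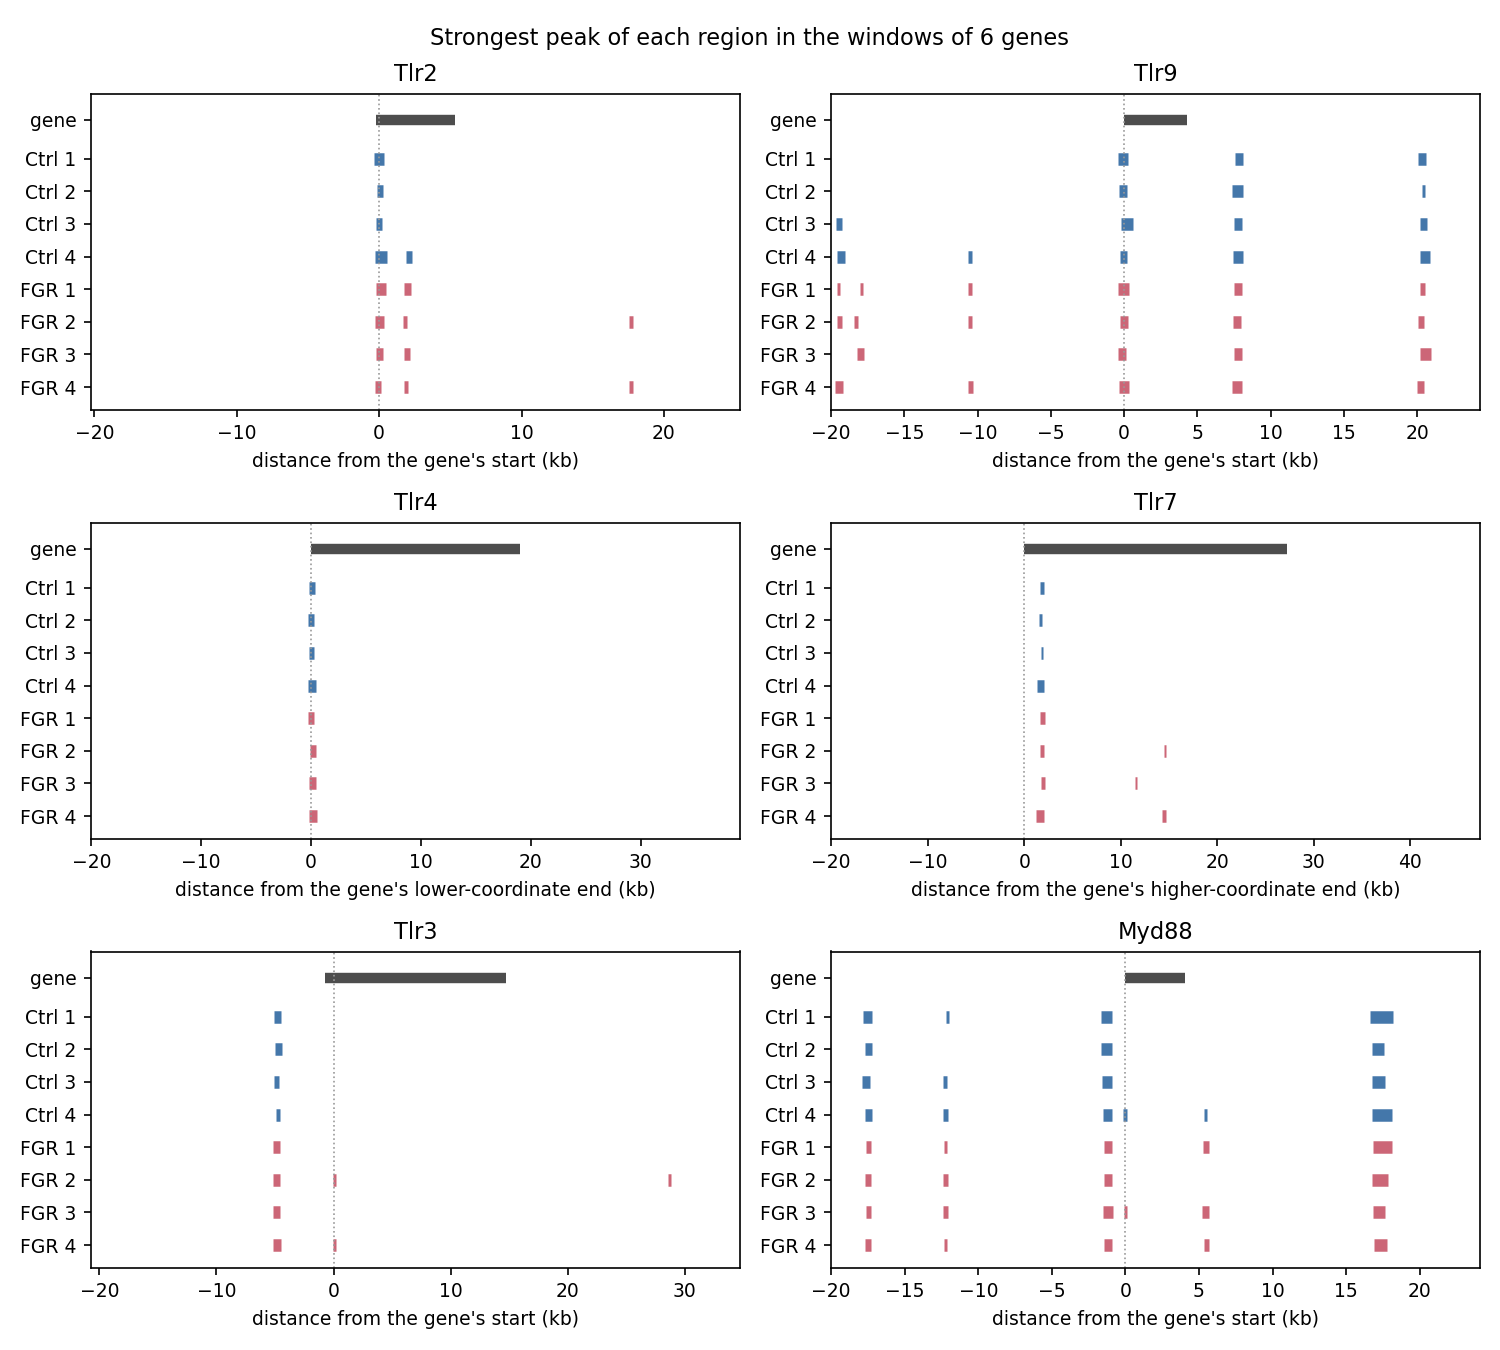
Position of the strongest peak of each region in the windows of Tlr2, Tlr9, Tlr4, Tlr7, Tlr3 and Myd88, with 1 row per library (Ctrl blue, FGR red), the gene span as a grey bar, and distance in kb along the gene's strand, or, for Tlr4 and Tlr7, inward from the named end. Peaks at the ends of Tlr2, Tlr9 and Tlr4 appear in all 8 libraries, while the peak over the start of Myd88 appears in Ctrl 4 and FGR 3 and that over the start of Tlr3 in FGR 2 and 4.

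Among the surface receptors, Tlr2 had a peak over its start in every library. This region, chr3:83841061-83841984, reaches from the promoter shown above into the gene, whose span is chr3:83836272-83841824 on the minus strand. Its summits lay between -75 and 131 bp from the start, where negative values are upstream. Within each list, peaks were ranked by the authors' −log10 q, and a percentile of 100 marks the strongest. The Tlr2 start peak stood at the 64.0, 36.3, 85.2 and 73.8 percentile in Ctrl 1 to 4 and at 80.4, 65.4, 87.0 and 52.1 in FGR 1 to 4. The groups overlapped, with the lowest place in Ctrl 2, and places in lists of different length do not show a change. The number of reads stacked at its summit, the pileup computed back from the fold and −log10 p of the authors' lists, was 24 to 47 in Ctrl and 35 to 52 in FGR.

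A second Tlr2 region lay inside the gene at chr3:83839273-83839908, with its nearer edge 1700 bp downstream of the start. It was called in Ctrl 4 and in all 4 FGR libraries. This was 1 of 2 regions in the set called in at least 3 more FGR than Ctrl libraries, as 4.32% of all regions were; 0 went the other way, beside 0.217% of all regions. Its percentile was 7.91 in Ctrl 4 and 44.5, 39.7, 29.2 and 58.9 in FGR 1 to 4, so that the only Ctrl call was weak within its list. The pileup was 27 in Ctrl 4 and 28 to 37 in FGR. Another region, chr3:83823800-83824088, lay 12184 bp beyond the other end of the gene and was called only in FGR 2 and 4.

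The partners of Tlr2 had no peak over a listed start in any library. Tlr1, chr5:64924680-64933600 on the minus strand, had a gene-end peak in FGR 4 alone, at chr5:64932746-64933158. Its strongest region by the median percentile, chr5:64922912-64923405, lay 1275 bp outside the gene and was called in Ctrl 1, Ctrl 3, FGR 3 and FGR 4. Tlr6, chr5:64953092-64970942 on the minus strand, had a region called in all 8 libraries inside its annotated span, chr5:64960609-64961464, with the nearer edge at -561 bp from the more upstream of its listed starts. This peak stood at the 53.0, 6.10, 59.2 and 62.3 percentile in Ctrl 1 to 4 and at 86.4, 39.8, 76.4 and 69.1 in FGR 1 to 4. Ctrl 2 was the lowest, and the groups overlapped. At the higher-coordinate end of Tlr6, where the span overlaps the neighbour Fam114a1, chr5:64969714-64970292 was called in 7 libraries and missed in Ctrl 2. That region covers a start of Fam114a1, so the peak cannot be given to Tlr6 alone. A further region there, chr5:64970391-64970986, was called only in FGR 3 and 4, at percentiles of 18.2 and 4.75. The windows of Tlr1 and Tlr6 overlap and share a region.

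Tlr4 had a single region in its window, at its lower-coordinate end, and all 8 libraries called it. The gene spans chr4:66827551-66846581 and the region chr4:66827298-66828091, with summits from -86 to 111 bp of that end, where positive values lie inside the gene. Its percentile was 74.4, 57.4, 89.5 and 82.6 in Ctrl 1 to 4 and 94.2, 94.1, 92.5 and 95.1 in FGR 1 to 4. The pileup was 37, 24, 47 and 46 in Ctrl and 50, 50, 52 and 58 in FGR. Neither measure overlapped between the groups, but neither is corrected for depth or list length. How many of all regions separate so by these measures was not counted, and the region upstream of Tlr3, described below, did so too. The number of peaks in the window, 1 in each library, did not differ.

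Cd14, chr18:36725064-36726815, showed peaks over the gene in some libraries only. A region inside it, chr18:36725514-36725921, was called in Ctrl 4, FGR 3 and FGR 4, and a second at its higher-coordinate end, chr18:36726558-36726807, in FGR 1 and 3. Counted together, 1 Ctrl and 3 FGR libraries had a gene-end peak at Cd14. The calls were weak, with percentiles from 5.87 to 41.7 and pileups from 19 to 28. The strongest region of the window by its median, chr18:36744218-36744942, lay at ends of the neighbours Ndufa2 and Ik and was missed only in Ctrl 2. A region at an end of Tmco6, chr18:36734754-36735569, was called in all 8.

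Of the endosomal receptors, Tlr9 had the most peaks in its window, 3, 3, 4 and 6 in Ctrl 1 to 4 and 7, 7, 5 and 6 in FGR 1 to 4. The start peak, chr9:106222195-106223384, was called in all 8 libraries and covers the promoter shown above, with summits from -205 to 102 bp of the start. Its percentile was 85.2, 41.4, 68.0 and 85.8 in Ctrl and 68.9, 76.0, 84.6 and 89.4 in FGR. These places overlapped, and Ctrl 2 was again the lowest. Beyond the gene, which spans chr9:106222598-106226876, chr9:106229952-106230740 was also called in all 8, 3076 bp from the gene's end, and was the strongest region of the window by its median. A region inside the upstream neighbour Twf2, chr9:106204171-106204813, was called in FGR 1, 2 and 3 and in no Ctrl library. It is the other region with at least 3 more FGR than Ctrl calls, and its percentiles were 22.6, 8.07 and 49.4. Further regions in the window lay at an end of Twf2, inside Twf2 and inside Alas1.

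Tlr3, chr8:45395665-45411075 on the minus strand, had a peak over its start only in FGR 2 and 4, at percentiles of 52.2 and 53.0. That region, chr8:45410171-45410420, had summits 48 and 54 bp downstream of the start. The strongest Tlr3 region lay upstream, at chr8:45414770-45415583, 3695 bp outside the gene, and was called in all 8 libraries. It stood at the 73.3, 69.1, 76.9 and 66.7 percentile in Ctrl 1 to 4 and at 90.0, 83.2, 84.8 and 85.9 in FGR 1 to 4. Every FGR place was above every Ctrl place within the lists, but not among the regions common to all 8 lists, given further on. The pileup was 25 to 40 in Ctrl and 42 to 50 in FGR, also without overlap. How many of all regions separate so by either measure was not counted.

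Tlr7, chrX:167303380-167330574, had no gene-end peak in any library. Its strongest region, chrX:167328398-167329386, lay inside the gene, 1188 bp from the higher-coordinate end, and was called in all 8. The percentile was 22.2, 24.2, 24.7 and 57.5 in Ctrl 1 to 4 and 82.6, 35.2, 70.2 and 64.8 in FGR 1 to 4, with Ctrl 4 above FGR 2. The pileup at this peak was low, 16 to 29 in Ctrl and 21 to 33 in FGR. Other regions inside Tlr7 were called in FGR 2 and 4 and in FGR 3. Tlr13, chrX:106143275-106160493 on the plus strand, also had no gene-end peak. The strongest of its regions by the median, chrX:106139426-106139832, lay 3443 bp upstream of the start and was called in Ctrl 1 to 3 at percentiles of 10.1, 42.4 and 6.55 and in FGR 2 to 4 at 33.9, 22.2 and 38.8. Another, 6715 bp upstream, was called in 2 Ctrl and 3 FGR libraries. Its median percentile of 25.4 was near the 28.0 of the first. The percentiles were 23.9 and 17.9 in Ctrl 1 and 4 and 61.2, 25.4 and 74.1 in FGR 1 to 3.

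Myd88, chr9:119335934-119340018 on the minus strand, had a gene-end peak in all 8 libraries, but the peak belongs in position to its neighbour. It is chr9:119340893-119341671, 875 bp upstream of the Myd88 start, and it covers a start of Acaa1a, an enzyme of peroxisomal fatty acid oxidation. This was the strongest region of all the windows, at percentiles of 92.9 to 96.3 in Ctrl and 94.8 to 99.0 in FGR, with overlap, and at pileups of 43 to 79 and 66 to 91. Over the start of Myd88 itself, chr9:119339877-119340166 was called only in Ctrl 4 and FGR 3, at percentiles of 50.9 and 57.7. Other regions called in all 8 libraries lay at ends of the neighbours Oxsr1 and Xylb.

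**Figure D2:**
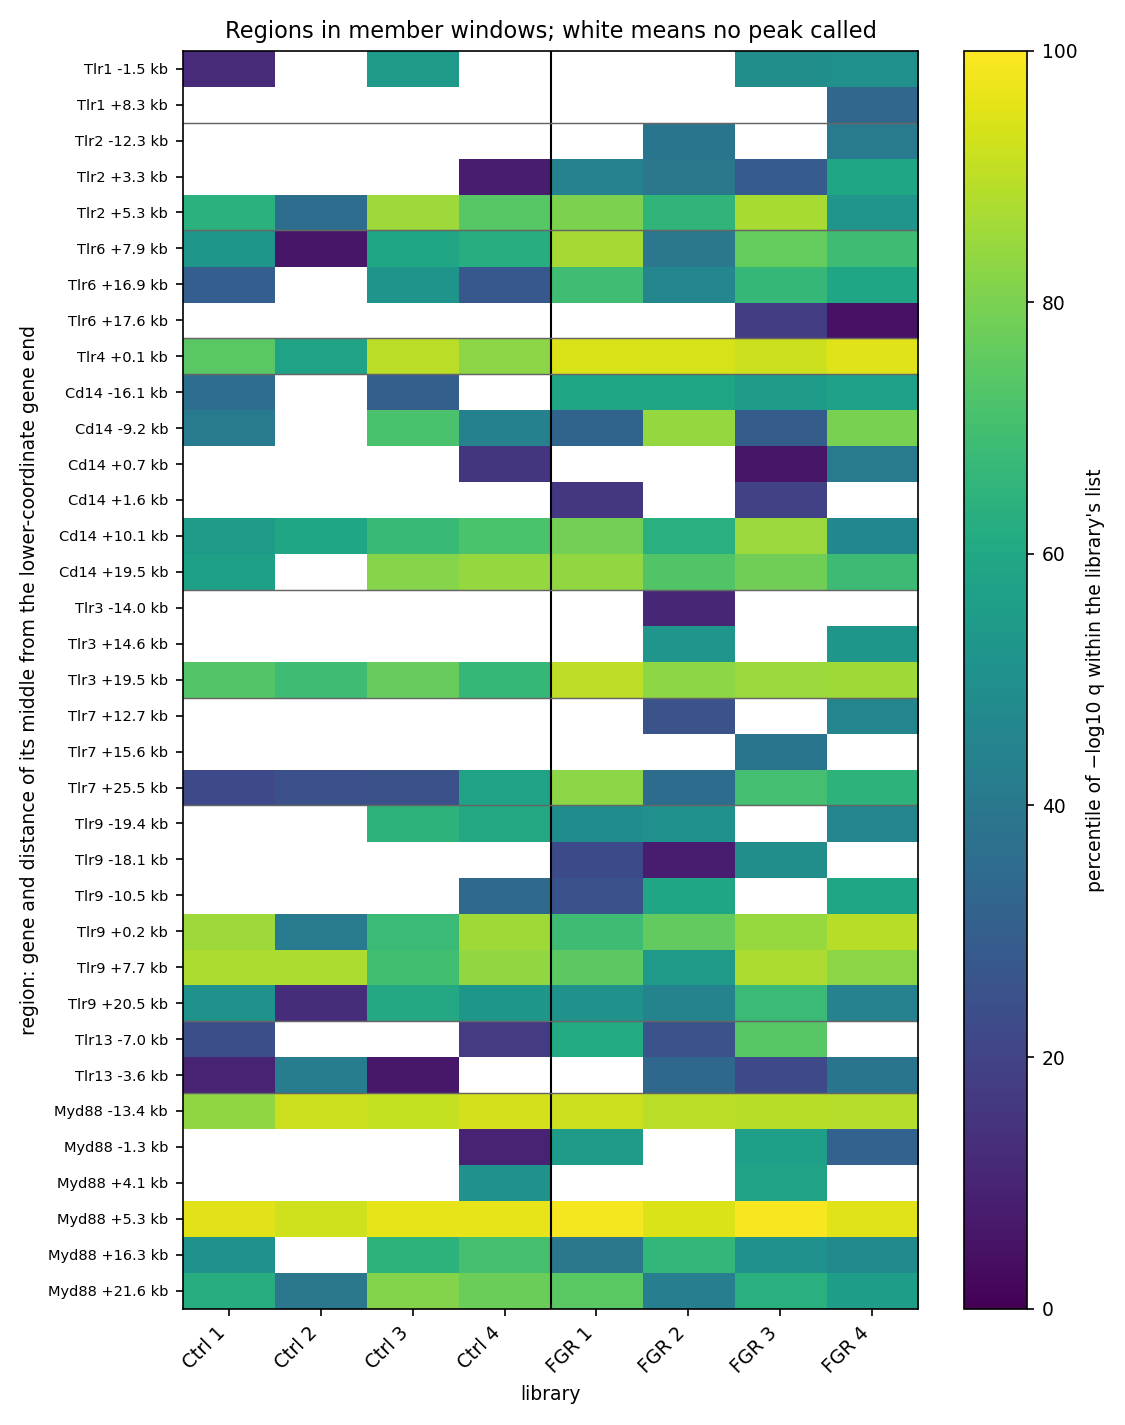
Percentile of −log10 q of the strongest peak within its library's list for the 35 regions in the windows (rows, named by gene and by distance of the region's middle from the lower-coordinate gene end) in 8 libraries (columns); white cells had no peak. The rows filled in all 8 columns number 12, and white cells are most frequent in Ctrl 2, which called 13 of the 35 regions.

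Across the set, 4 of 10 genes (Tlr2, Tlr4, Tlr9 and Myd88) had a gene-end peak in all 8 libraries, beside 31.9% of all protein-coding genes, and 2 (Tlr7 and Tlr13) had none in any, beside 42.2%. No gene of the set differed by 3 or more libraries between the groups. Cd14 came to that difference, as a share of the libraries left, without Ctrl 4 or without FGR 2, and Tlr6 did so with all lists shortened to the strongest 10862 peaks. Among all genes, 1.21% had at least 3 more FGR and 0.174% at least 3 more Ctrl libraries. Of the 35 regions, 12 were called in all 8 libraries, beside 16.9% of all regions, and 15 lay inside a gene of the set, 5 of these in all 8 libraries. Regions called in more FGR than Ctrl libraries numbered 20, beside 58.6% of all regions, and 0 were called in more Ctrl libraries, beside 17.8%. The remaining 15 were called equally often. The shares over all regions include regions called in 1 library, which were 45.9% of all regions and 8.57% of these 35. The numbers of regions called were 20, 13, 20 and 23 in Ctrl 1 to 4 and 24, 27, 28 and 29 in FGR 1 to 4, so that every FGR library called more than every Ctrl library. These numbers are not divided by list length, and how often other gene sets separate so was not tested. No region was called in 4 FGR and 0 Ctrl libraries or the reverse, beside 0.866% and 0.0268% of all regions, and the count stayed 0 without Ctrl 1 and 2. Leaving out Ctrl 4 brought the region inside Tlr2 to such a split, and leaving out FGR 4 the region inside Twf2 near Tlr9. By Fisher's exact test, two-sided, the smallest p in the windows was 0.143, with an adjusted p of 1. The smallest p that 4 against 4 allows in this test is 0.0286. Only the 0.866% and 0.0268% of all regions given above reached it, too few to pass the adjustment over 52177 regions.

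Regions called in FGR only numbered 9 of 35, or 25.7%, beside 42.3% of all regions, and 0 were called in Ctrl only, beside 14.9%. A region of 1 library falls in 1 group by necessity. Such regions were 8.57% of the 35 and 45.9% of all regions, so these shares are not directly comparable. Among the 9, 5 were called in exactly 2 FGR libraries. Of these, 4 were called in FGR 1 and 3 or in FGR 2 and 4, the pairs that share summits: the Tlr2, Tlr3 and Tlr7 regions in FGR 2 and 4, and the region at the end of Cd14 in FGR 1 and 3. The remaining one was the Tlr6 region of FGR 3 and 4. Over the whole data, 77.0% of the 3784 regions called in exactly 2 FGR and no Ctrl libraries fell in those pairs. Whether calls within such a pair are separate observations was not tested.

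Peaks in all windows together, each counted once, numbered 20, 14, 21 and 24 in Ctrl 1 to 4 and 25, 29, 31 and 31 in FGR 1 to 4. The means were 19.75 ± 4.19 (SD, n = 4) and 29 ± 2.83 (SD, n = 4), and every FGR library was above every Ctrl library. Divided by list length, the order was lost, with 12.4, 12.9, 9.25 and 9.92 peaks per 10000 in Ctrl and 9.19, 12.4, 10.5 and 11.8 in FGR. These means were 11.1 ± 1.80 (SD, n = 4) and 11.0 ± 1.44 (SD, n = 4), a difference smaller than the spread between libraries. Without Ctrl 1 and 2 the Ctrl mean was 9.58, from 2 libraries, and leaving out single libraries moved the FGR minus Ctrl difference of -0.13 to between -0.76, without Ctrl 3, and 0.47, without FGR 1. The mean number of peaks per window was higher in FGR for 9 of 10 genes and equal for Tlr4, beside 56.6% of all gene windows higher. Per 10000 peaks of the list, it was higher for 6 genes and lower for 4 (Tlr4, Cd14, Tlr13 and Myd88), beside 30.3% of all windows higher and 48.2% lower. The shares over all windows also count windows without a peak, which are neither higher nor lower, while each of the 10 windows held peaks. Tlr4, with 1 peak in every library, is lower only through the division by list length. None of the 10 had more peaks in every FGR than in every Ctrl library, beside 2.23% of all windows, and none had fewer, beside 0.0183%.

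**Figure D3:**
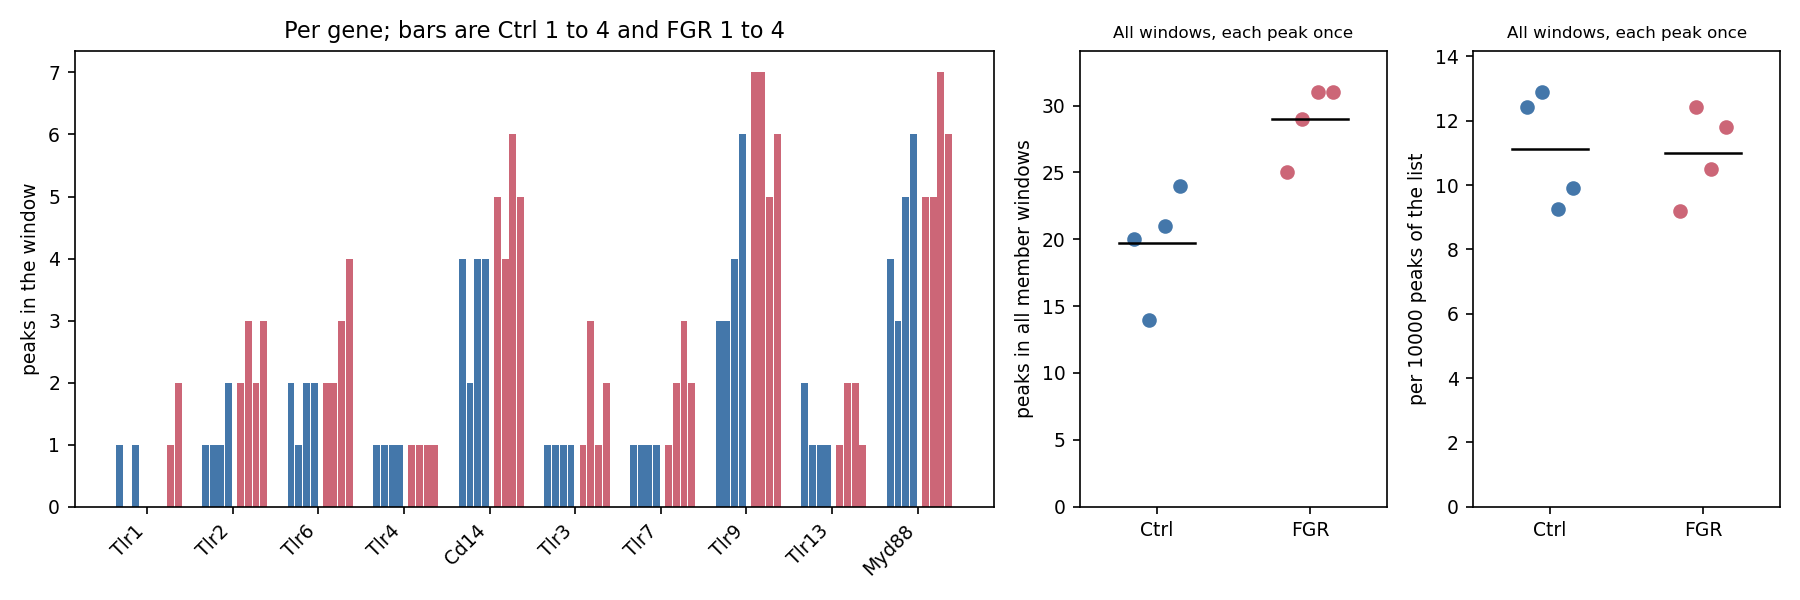
Number of peaks in each gene's window by library (left, Ctrl blue and FGR red) and, for all windows together, the number of peaks (middle) and peaks per 10000 of the library's list (right), with a point per library and a line at the mean. The summed peaks separate at 14 to 24 against 25 to 31, and the values per 10000 peaks overlap at 9.25 to 12.9 against 9.19 to 12.4.

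The windows of Tlr6, Cd14, Tlr9 and Myd88 had a mean of at least 2 peaks and entered limma with 8037 loci. On the scale of log2 peaks per 10000 with a pseudocount of 0.5 peaks, the FGR minus Ctrl difference was -0.07 ± 0.30 (SE) for Tlr6, with limma's adjusted p = 0.895. It was -0.10 ± 0.23 for Cd14, 0.03 ± 0.23 for Tlr9 and -0.24 ± 0.21 for Myd88, with adjusted p = 0.80, 0.935 and 0.483. None of the 4 loci was called, and none had an unadjusted p under 0.05. Their median was -0.08 beside -0.28 over all loci, where limma called 1 higher (0.0124%) and 0 lower (0.0%), with 209 higher and 1256 lower at an unadjusted p under 0.05. Without division by list length the median of all loci was 0.31, and the Tlr6, Cd14 and Myd88 differences became positive, at 0.52, 0.49 and 0.35, while the counts over all loci at an unadjusted p under 0.05 turned to 1274 higher and 12 lower. Without Ctrl 1 and 2, Tlr6 and Cd14 stood at 0.16 and 0.10. Differences at a single locus were poorly detectable in counts simulated with Poisson noise for these 8037 loci. There limma found 0 of 200 loci changed by a fold of 2 and 167 of 200 changed by a fold of 4. At a fold of 4 it also called 5 unchanged loci. The simulated spread was not matched to that of the real libraries, so detection in these data may differ. The other 6 windows had too few peaks for the test. In Ctrl 1 to 4 and FGR 1 to 4, Tlr2 had 1, 1, 1, 2 and 2, 3, 2, 3 peaks. Tlr3 had 1 in each Ctrl library and 1, 3, 1 and 2 in FGR, and Tlr7 had 1 in each Ctrl library and 1, 2, 3 and 2 in FGR. Tlr1 and Tlr13 ranged from 0 to 2 and from 1 to 2 over all libraries.

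To set peak strength beside a common set, each list was reduced to the 8840 regions called in all 8 libraries and ranked again by −log10 q. This measure was added after the values had been seen and is a description. The Tlr4 region stood at the 55.0, 48.9, 73.7 and 54.1 percentile in Ctrl 1 to 4 and at 82.5, 84.6, 75.5 and 85.6 in FGR 1 to 4, without overlap, the nearest values being Ctrl 3 and FGR 3. It was the only one of the 12 regions with every FGR above every Ctrl library, as 5.14% of the shared regions were. None was below in every FGR library, as 4.02% were. Against Ctrl 3 and 4 alone, 2 regions were higher in every FGR library (Tlr4 and the region upstream of Tlr3) and 2 were lower (those at ends of Oxsr1 and Xylb near Myd88), beside 11.1% and 10.6% of the shared regions. The Tlr3 region stood at 53.3, 62.5, 46.2 and 22.6 in Ctrl 1 to 4 and at 70.1, 58.8, 53.4 and 61.2 in FGR 1 to 4, with overlap through Ctrl 2. At Tlr7 the values were 4.59, 15.7, 2.26 and 12.1 in Ctrl and 51.2, 5.79, 23.9 and 23.3 in FGR, with FGR 2 among the Ctrl values. Shifts of similar size went the other way. The region at the end of Xylb near Myd88 stood at 36.8, 29.8, 55.2 and 42.4 in Ctrl and at 33.8, 9.20, 15.9 and 14.6 in FGR, with FGR 1 among the Ctrl values. The region beyond Tlr9 stood at 77.9, 85.0, 33.6 and 56.6 in Ctrl and at 34.6, 16.2, 61.6 and 53.2 in FGR, with overlap. The mean differences, FGR minus Ctrl, were -22.7 and -21.9 percentile points for these. The start peaks of Tlr2 and Tlr9 overlapped between the groups, at 26.6 to 63.5 against 11.8 to 59.2 and at 31.2 to 73.3 against 24.9 to 69.9.

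**Figure D4:**
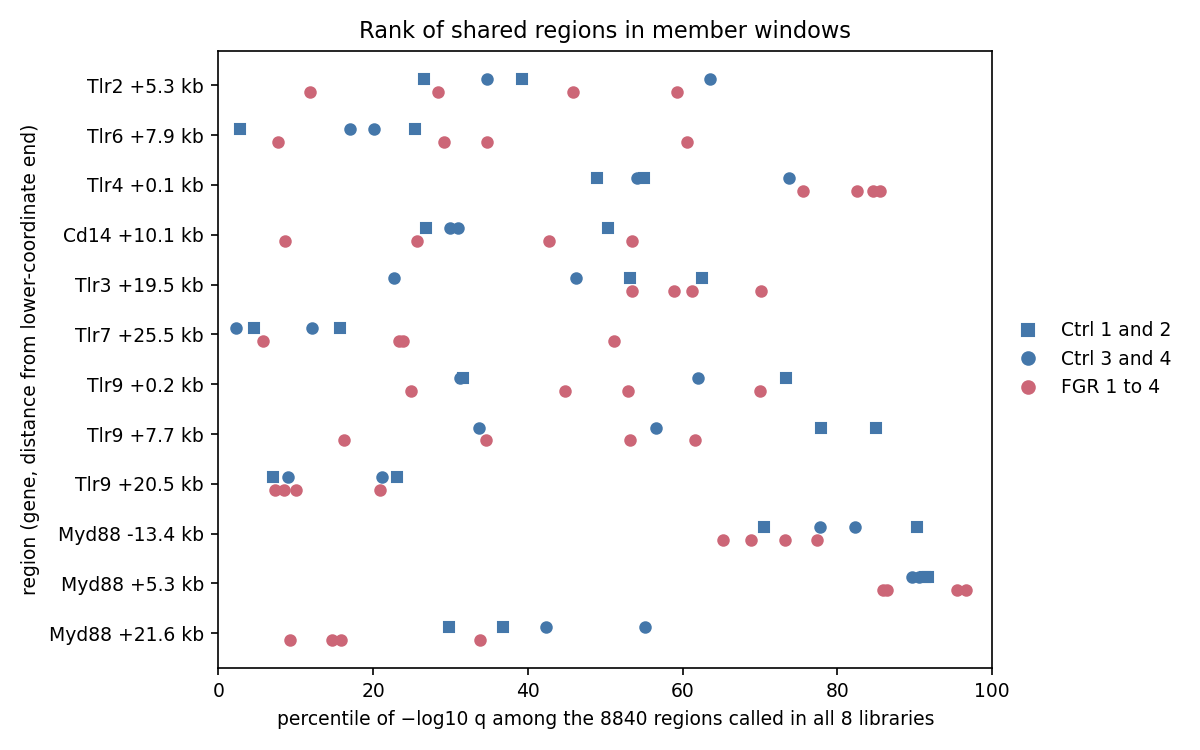
Percentile of −log10 q among the 8840 regions called in all 8 libraries (x axis, 100 is strongest) for the 12 of them in the windows (rows, named as in the plot of regions by library), with Ctrl blue (squares for Ctrl 1 and 2) and FGR red. In the Tlr4 row, Ctrl values of 48.9 to 73.7 lie below FGR values of 75.5 to 85.6, and in the other 11 rows the groups overlap.

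Other genes of the pathway were taken from a list of 42 co-receptors, adaptors, kinases, transcription factors, trafficking proteins and inhibitors. Gene-end peaks were present in all 8 libraries for 23 of them, beside the 31.9% of all genes given above. They include the adaptor Ticam1, through which Tlr3 signals, the kinases Irak1 and Irak4 downstream of Myd88, and the NF-kappaB subunits Nfkb1 and Rela. No library had one at 6 of them: Tlr8, Cd36, Ikbke, Irf5, Irf7 and Sigirr. Cd180, a receptor-like protein related to Tlr4, was the 1 gene that differed by 3 or more libraries, with a gene-end peak in Ctrl 4 and in all 4 FGR libraries, the same libraries as the region inside Tlr2. The endothelial marker Flt1 had a gene-end peak in those same libraries, and the lymphocyte marker Cd3d in Ctrl 4 and FGR 1 to 3. The other 3 endothelial markers had one in at most 1 library and the part of such cells was not tested. The chaperone Unc93b1, which carries the endosomal receptors out of the endoplasmic reticulum, and Ly96, the lipopolysaccharide-binding partner of Tlr4, had one in 3 Ctrl and 4 FGR libraries. Of the 24 pathway loci with enough peaks for limma, 0 passed the adjusted threshold and 4 were lower at an unadjusted p under 0.05 (Tab2, Ikbkb, Irf3 and Tnfaip3). These are 16.7% of the pathway loci, near the 15.6% of all loci, and the direction over all loci turned without division by list length. The median of the pathway loci was -0.20 beside -0.28 over all loci. The genes named in this paragraph as examples were picked after their values were seen, apart from Cd180.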

How the data were processed

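ATAC-seq peaks of 8 hippocampal microglia libraries, 4 Ctrl and 4 FGR, were analysed from 1 deposited list per library. The submitters' processing notes name the build mm10 and, without roles, MACS2 2.2.7.1, DiffBind 3.12.0, Bowtie2 2.4.5, Trim Galore 0.6.5 and SAMtools 1.3.1. The sources used here do not give read shifting, duplicate removal or read totals. Per peak, the authors deposited a display score, which was not used, a fold ratio over the local background, and −log10 p and −log10 q values, the smallest −log10 q being 1.31. These values are the authors' own and served to rank, describe or filter peaks within a list. Pileups were recovered from fold and −log10 p as whole reads for 100% of the peaks tried in each list, within 0.001 on the −log10 scale.

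Genes and promoters came from RefSeq tables of GRCm38.p6, without exons. Starts and strands were given for 7 of the 10 genes. Regions were peaks merged at 1 bp, tested with Fisher's exact test. Peaks per window were compared by limma (version 3.58.1, R 4.3.3, trend) for loci whose mean was 2 peaks or more, with Benjamini-Hochberg adjustment at 0.05. The rest was done in Python 3.11.15 with pandas 2.3.3, scipy 1.17.1, numpy 2.4.6 and, for figures, matplotlib 3.10.9. The limma fit was tested on simulated data.

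The genes, lists and rules were chosen with earlier results of these data known. The rule for what is named takes all 10 genes, regions at their ends or starts, regions inside them in at least 7 libraries, regions called in at least 3 more libraries of a group, the strongest region of each window by its median percentile, and pathway genes whose gene-end peak differs by at least 3 libraries or that pass limma. Anything else that is named was picked with its values in view. Alternatives changed the threshold, list length, window, pseudocount, filter, scaling, pairing and libraries. Replicates 1 and 2 carry older sample numbers than 3 and 4. The labels give no batch.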

Additional observations from a re-analysis of the deposited data

How the results depend on the processing

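No locus of the set was called by limma under any of the alternatives run, while the count over all loci, 1 as reported, went to 57 with a pseudocount of 1, 16 without the filter, 20 with equal-length lists, 11 without division by list length, 141 with replicate number as a block and 3 in windows of 5 kb, and ranged from 0 to 15 without each library in turn. Signs of the small differences depended on the setting. Without division by list length they were 0.52 for Tlr6, 0.49 for Cd14 and 0.35 for Myd88; without Ctrl 1 and 2, 0.16 for Tlr6 and 0.10 for Cd14; with replicates 3 and 4 only, 0.42 for Tlr6, 0.16 for Cd14 and -0.10 for Tlr9. Tlr9 was -0.12 with equal-length lists, -0.22 in windows of 5 kb and -0.023 with a pseudocount of 1. Without each library in turn, Tlr6 ranged from -0.25 to 0.053, Cd14 from -0.18 to 0.014, Tlr9 from -0.082 to 0.18 and Myd88 from -0.31 to -0.17. The cause was not tested. Over all alternatives the adjusted p was at least 0.286 for these loci.

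Regions called in every FGR and no Ctrl library, 0 as reported, numbered 1 in windows of 50 kb (chr18:36699510-36700105) and 1 with replicates 3 and 4 only (the Tlr6 region of FGR 3 and 4). They numbered 0 to 1 without each library in turn: the region inside Tlr2 without Ctrl 4, and the region inside Twf2 near Tlr9 without FGR 4. Genes whose gene-end peak differed by 3 or more libraries, 0 as reported, numbered 1 with equal-length lists (Tlr6, 0 Ctrl and 3 FGR libraries) and 0 to 1 without each library in turn, where Cd14 reached 0 of 3 against 3 of 4 without Ctrl 4 and 1 of 4 against 3 of 3 without FGR 2. The FGR minus Ctrl difference of summed peaks was -0.13 per 10000 peaks, 9.25 peaks without division by list length and 1.58 per 10000 with replicates 3 and 4 only. It ranged from -0.76 (without Ctrl 3) to 0.47 (without FGR 1) without each library in turn and was 1.40 without Ctrl 1 and 2, and it turned positive without Ctrl 1, Ctrl 2, FGR 1 or FGR 3. With equal-length lists, 6 of the 12 regions called in all 8 libraries remained in all 8. There the region inside Tlr7 kept 2 Ctrl and 3 FGR calls, that inside Alas1 3 and 1, and that at the end of Xylb 4 and 2. At a −log10 q of at least 5, 9 of the 12 remained in all 8, and the region inside Tlr7 kept 1 Ctrl and 4 FGR calls.

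With replicate number as a block the differences were -0.07 for Tlr6, -0.10 for Cd14, 0.03 for Tlr9 and -0.24 for Myd88, with limma's adjusted p from 0.476 to 0.932. Same-numbered libraries deviated together with correlations from -0.02 to 0.10, and not every library correlated best with its own number, so the numbers were not taken as pairs. Tlr6 was not run at a −log10 q of at least 5 or with equal-length lists, and Cd14 and Myd88 not in windows of 5 kb, where too few peaks were left. The planned overlap of 50 percent gives the 1 bp result by construction, so peaks were instead linked at 50 percent of the shorter peak, chosen after seeing the data, and both counts stayed 0. Peak calls in Ctrl 2, with the shortest list, limit what absence there can show.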
